A study of Mus musculus with 12 samples.

Results

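The 9 genes described here code for transcription factors, or for cofactors of such factors, that set fast or slow fibre identity and the fetal programme of skeletal muscle: *Six4*, *Eya1*, *Tead1*, *Vgll2*, *Tbx15*, *Sox6*, *Prox1*, *Nfatc1* and *Nfix*. They were chosen by symbol for these known roles, at a time when earlier results of these data were known, and all 9 of them were found among the 55450 genes of the count table. RNA of the tibialis anterior (TA), a mostly fast muscle of the lower hindlimb, was sequenced from wild-type (WT) mice at E18.5, shortly before birth, and at 2 weeks (wks) and 7 wks of age. Each age had 4 mice, with a library for each mouse (12 libraries). All mice carried the 129Pas genetic background and the WT genotype, no agent is named for any group, and the labels separate the groups by age. Their sex is not given in the sources used here. The libraries came from pieces of whole muscle, and in such bulk RNA fewer cells of a type and less RNA per cell cannot be told apart. In the postnatal muscles the 6 muscle fibre markers *Ckm*, *Acta1*, *Ttn*, *Des*, *Mb* and *Ryr1* summed to 72150 to 114500 counts-per-million units (CPM), against 6887 to 13800 CPM at E18.5, and none of them was at 0 in any age.

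SIX-family homeobox proteins bind MEF3 sites in muscle genes, and EYA proteins such as EYA1 are the coactivators they need because SIX4 and its relatives activate little on their own. This pair is known for switching on the glycolytic fast fibre programme. TEAD1 binds MCAT sites and takes its activity from partners, among them VGLL2, a cofactor enriched in skeletal muscle. TBX15 is a T-box factor of glycolytic fibres. SOX6 represses slow fibre genes in fast fibres, while PROX1 is needed for slow fibre identity and is also the factor that specifies lymphatic endothelium. NFATC1 enters the nucleus when nerve activity raises calcium and calcineurin, and it favours slow and oxidative genes. NFIX is the nuclear factor I protein that turns the embryonic programme of myoblasts into the fetal programme.

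By the RefSeq annotation of GRCm38.p6, *Six4* (ENSMUSG00000034460) lies at chr12:73099609-73114031, *Eya1* (ENSMUSG00000025932) at chr1:14168953-14311035 and *Tead1* (ENSMUSG00000055320) at chr7:112679356-112906784. *Vgll2* (ENSMUSG00000049641) lies at chr10:52022502-52028471, *Tbx15* (ENSMUSG00000027868) at chr3:99240348-99354260 and *Sox6* (ENSMUSG00000051910) at chr7:115470872-116040776. *Prox1* (ENSMUSG00000010175) lies at chr1:190118035-190170827 and *Nfix* (ENSMUSG00000001911) at chr8:84704712-84801238. Counts were taken per gene, so that each value covers the exons of the whole gene.

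RefSeq start windows were at hand for 5 of the 9 genes, namely *Six4*, *Sox6*, *Prox1*, *Nfix* and *Vgll2*. The 250 bases before a start are shown for a gene that fell, *Prox1*, and for 3 genes that rose by 7 wks, *Six4*, *Sox6* and *Vgll2*, so that the letters known to be bound by these families can be seen in genes of opposite course. Each is written 5′ to 3′ on the strand of its gene, in lower case, with every match on either strand in capitals to the MCAT motif CATTCC (TEAD), the MEF3 motif TCAGGTT (SIX4 and relatives), the NFI motif TTGGCA, the SOX motif AACAAT, the NFAT motif GGAAA or the E-box CANNTG (myogenic factors).
*Prox1*, chr1:190170828-190171077, minus strand, ending at the gene's start: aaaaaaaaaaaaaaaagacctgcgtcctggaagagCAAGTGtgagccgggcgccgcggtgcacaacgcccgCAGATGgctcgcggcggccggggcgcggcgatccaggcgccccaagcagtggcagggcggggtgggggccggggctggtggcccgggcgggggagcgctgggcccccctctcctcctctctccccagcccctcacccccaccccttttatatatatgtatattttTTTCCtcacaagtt
*Sox6*, chr7:116038745-116038994, minus strand, inside the gene's span: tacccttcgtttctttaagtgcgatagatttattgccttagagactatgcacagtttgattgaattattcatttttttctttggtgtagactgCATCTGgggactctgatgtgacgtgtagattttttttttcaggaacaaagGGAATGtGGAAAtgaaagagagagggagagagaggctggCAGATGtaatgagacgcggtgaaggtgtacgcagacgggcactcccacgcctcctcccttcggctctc
*Vgll2*, chr10:52022252-52022501, plus strand, ending at the gene's start: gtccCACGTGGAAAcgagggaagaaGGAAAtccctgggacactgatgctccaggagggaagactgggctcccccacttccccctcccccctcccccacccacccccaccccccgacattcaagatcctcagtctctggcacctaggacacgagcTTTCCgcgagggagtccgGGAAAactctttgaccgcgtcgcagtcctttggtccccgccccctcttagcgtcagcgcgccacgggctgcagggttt
*Six4*, chr12:73113246-73113495, minus strand, inside the gene's span: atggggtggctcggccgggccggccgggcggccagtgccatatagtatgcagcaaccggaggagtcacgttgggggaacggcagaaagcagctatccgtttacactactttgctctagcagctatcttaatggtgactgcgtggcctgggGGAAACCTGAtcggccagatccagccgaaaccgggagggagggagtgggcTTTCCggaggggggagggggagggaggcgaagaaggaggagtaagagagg

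The capitals in the *Prox1* window are 2 E-boxes and a NFAT match. In *Sox6*, 2 E-boxes flank a MCAT match on the other strand and a NFAT match next to it. The *Vgll2* window holds 4 NFAT matches, the first of which shares a base with an E-box. *Prox1* has 2 windows and *Sox6* has 6, and the most upstream one of each is shown. Across the other *Sox6* windows, 1 holds a second MCAT match and 1 holds MEF3, NFI and SOX matches. For *Six4*, which has 2 windows, the window that holds a MEF3 match was taken. That match lies on the other strand at position -97 and shares 2 bases with a NFAT match at position -100. Another NFAT match among the bases shown lies on the other strand at position -50. Of all 32851 windows of 300 bases in the table, 4.07% held the MEF3 motif, 14.7% the MCAT motif, 14.1% the NFI motif, 10.7% the SOX motif, 61.3% the NFAT motif and 72.3% the E-box. NFAT and E-box matches were thus present in most windows of the genome, and a match describes letters only.

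The libraries held 63018968 to 123449246 counts, and the least of the 9 genes, *Prox1* at 7 wks, still had 69 to 151 counts per library. The makeup of the RNA differed by age: 13.75 to 16.1% of the counts fell on the 20 most abundant genes in libraries of E18.5, 33.2 to 35.57% in those of 2 wks and 36.38 to 37.83% in those of 7 wks. Levels below are therefore CPM scaled by trimmed means (TMM), which holds the bulk of genes level. Scaling to the total count moved the median log2 fold change of all genes by -0.93 from E18.5 to 2 wks, by -0.35 from 2 to 7 wks and by -1.28 from E18.5 to 7 wks. Among other cell types, the 6 fibroblast markers summed to 5961 to 12270 CPM before birth, then 4464 to 6126 CPM (2 wks) and 970 to 4078 CPM (7 wks). The 5 adipocyte markers reached 1907 and 2679 CPM in E18.5 replicates 3 and 4, against 176 to 483 CPM in the other 10 libraries. The 5 Schwann cell markers reached 489.5 CPM in 2 wks replicate 1, against 53.2 to 174 CPM in the others. The 5 satellite cell and myoblast markers summed to between 38.3 and 87.4 CPM over all ages, which hides falls of single markers. By the edgeR test used below, 2 of these 5 genes fell to 2 wks and 1 from 2 to 7 wks. In both intervals 0 rose, also at an unadjusted p under 0.05 and by DESeq2.

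From E18.5 to 2 wks, 6 of the 9 genes rose, *Prox1* fell, and *Six4* and *Tead1* did not pass the test (edgeR quasi-likelihood test, Benjamini-Hochberg adjusted p under 0.05). Over the 19276 genes tested in this interval, 65.7% passed, 31.5% higher and 34.2% lower. From 2 to 7 wks, 5 genes rose (*Six4*, *Eya1*, *Tead1*, *Tbx15* and *Sox6*), *Prox1* fell, and *Vgll2*, *Nfatc1* and *Nfix* did not pass, where 27.5% of all genes passed, 13.5% higher and 13.9% lower. Between E18.5 and 7 wks all 9 genes passed, 8 of them higher and *Prox1* lower, beside 71.4% of all genes (34.3% higher and 37.1% lower). With total count scaling the 9 genes split into 2 higher and 3 lower to 2 wks, 2 higher and 1 lower from 2 to 7 wks, and 4 higher and 1 lower from E18.5 to 7 wks. All genes then split into 2552 higher and 11917 lower, 948 and 5391, and 2293 and 13296 over the same intervals. The median log2 fold change of the 9 genes was 0.96 to 2 wks and 0.76 from 2 to 7 wks, against -0.09 and -0.03 for all genes. Libraries of the ages did not overlap for 7 of the 9 genes between E18.5 and 2 wks and for 6 of 9 between 2 and 7 wks, where 61.3% and 33.7% of all genes did not overlap, and for all 9 between E18.5 and 7 wks, where 63.4% of all genes did not. These counts, and the overlaps given for single genes below, are for TMM. When scaled to the total count, *Eya1*, *Vgll2*, *Tbx15* and *Sox6* also overlapped between E18.5 and 2 wks, and *Tead1* between 2 and 7 wks. Between E18.5 and 7 wks, *Six4*, *Tead1*, *Vgll2*, *Tbx15* and *Nfix* then overlapped.

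**Figure D1:**
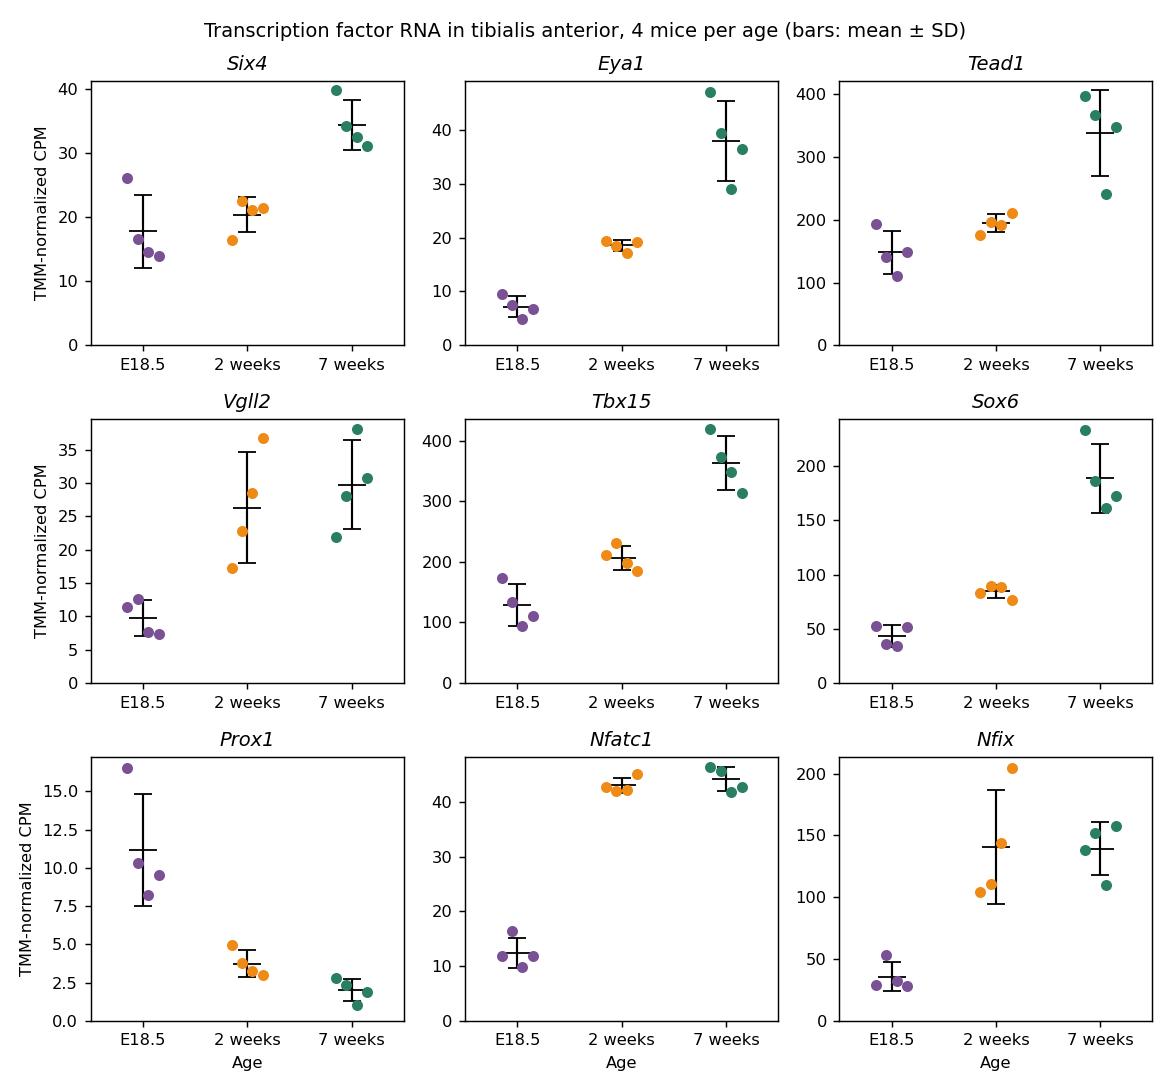
TMM-normalized CPM of the 9 genes (vertical axes, linear and starting at 0) in each mouse at E18.5, 2 wks and 7 wks, with points for mice and bars for mean ± SD of 4 mice. *Nfatc1* lay at 9.80 to 16.3 CPM at E18.5 and at 41.8 to 46.4 CPM in all 8 postnatal libraries, *Prox1* was highest at E18.5, and *Eya1*, *Sox6* and *Tbx15* were higher at each later age.

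By the intervals in which a gene passed the test with TMM, the courses were of 4 kinds. *Prox1* fell in both intervals, *Eya1*, *Sox6* and *Tbx15* rose in both intervals, *Six4* and *Tead1* passed the test only from 2 to 7 wks, and *Nfix*, *Vgll2* and *Nfatc1* passed it only to 2 wks. The contrast of the intervals, the change to 2 wks minus the change from 2 to 7 wks, tests whether the 2 changes of a gene differ. It passed for *Nfix* (2.01 ± 0.41 SE on the log2 scale, adjusted p = 0.002478 by edgeR), *Nfatc1* (1.75 ± 0.25, adjusted p = 0.0002153) and *Vgll2* (1.26 ± 0.43, adjusted p = 0.03172), beside 38.4% of all genes (21.6% with the larger value to 2 wks and 16.8% with the smaller). For the other 6 genes it did not pass, among them *Six4* (-0.56, 95% interval -1.29 to 0.17) and *Tead1* (-0.41, interval -1.12 to 0.30). It thus did not set *Six4* and *Tead1* apart from the genes that rose in both intervals. With total count scaling it passed for 4 genes, 2 higher and 2 lower: *Nfix* and *Nfatc1* still passed, *Six4* (-1.14, adjusted p = 0.01398) and *Tead1* (-0.99, adjusted p = 0.02503) now passed with the larger value after 2 wks, and *Vgll2* no longer did (0.64, adjusted p = 0.1939). The 3 genes with the early rise had the highest GC contents of the 9, with 57.4% for *Vgll2*, 56.9% for *Nfix* and 54.1% for *Nfatc1* against 44.6 to 50.3% for the others and a median of 49.9% over tested genes. After each library's trend over GC content was removed, the contrast was 1.06 for *Nfatc1* (adjusted p = 0.006127), 0.75 for *Nfix* (adjusted p = 0.1716) and -0.12 for *Vgll2* (adjusted p = 0.8642), and it became 0.93 for *Eya1* (adjusted p = 0.01731). The early rise against a flat later course therefore passed with and without the GC trend for *Nfatc1*, and only with it for *Nfix* and *Vgll2*.

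**Figure D2:**
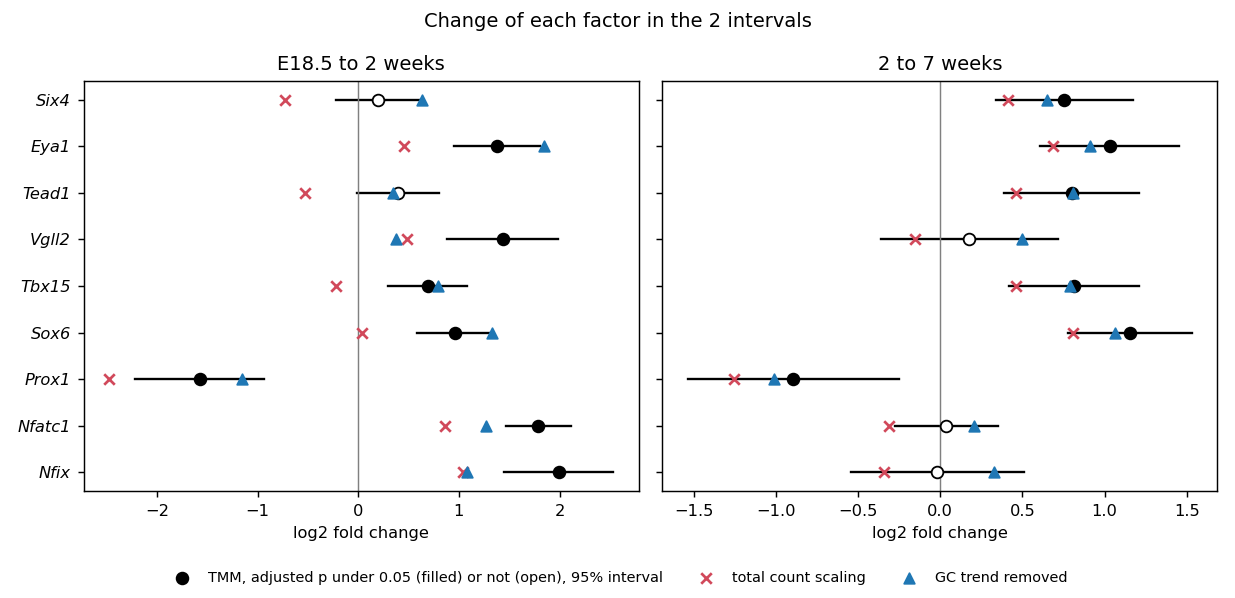
Log2 fold change of each of the 9 genes (horizontal axes) from E18.5 to 2 wks and from 2 to 7 wks. Circles give the TMM value with its 95% interval, filled where the adjusted p was under 0.05, crosses the value with total count scaling and triangles the value with the GC trend removed. In the left panel *Six4* and *Tead1* lie at 0.20 and 0.39 with TMM and at -0.73 and -0.53 with total count scaling, while *Prox1* lies below 0 under all 3 treatments in both panels.

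*Six4*, the homeobox factor, was at 26.03, 16.5, 14.5 and 13.9 CPM in the 4 mice at E18.5, at 16.4, 22.4, 21.1 and 21.4 CPM at 2 wks and at 39.8, 34.1, 32.5 and 31.0 CPM at 7 wks. E18.5 replicate 1 stood above every mouse of 2 wks, and these ages overlapped, while all mice of 7 wks lay above both with TMM. The change to 2 wks was 0.20 ± 0.19 (SE) on the log2 scale (adjusted p = 0.3843 by edgeR), with total count scaling -0.73 (adjusted p = 0.003049) and with the GC trend removed 0.63 (adjusted p = 0.00218), and it was 0.44 (adjusted p = 0.0169) without E18.5 replicate 1, so that neither a direction nor a lack of change was settled. From 2 to 7 wks *Six4* rose 1.69-fold (log2 0.76 ± 0.19, adjusted p = 0.01161), and the value was 0.41 and no longer passed with total count scaling and 0.65 (adjusted p = 0.05032) without 2 wks replicate 1.

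*Eya1*, the coactivator and phosphatase that partners SIX4, was at 9.58, 7.55, 4.84 and 6.66 CPM at E18.5, at 19.4, 18.52, 17.1 and 19.2 CPM at 2 wks and at 47.0, 39.5, 29.0 and 36.4 CPM at 7 wks. The 3 ages did not overlap with TMM. It rose 2.59-fold to 2 wks (log2 1.37 ± 0.20, adjusted p = 4.517e-05 by edgeR) and 2.05-fold from 2 to 7 wks (log2 1.03 ± 0.20, adjusted p = 0.002132). Total count scaling left the rise to 2 wks at 0.46 (adjusted p = 0.0504), and the change from E18.5 to 7 wks, 2.41 with TMM, passed under both.

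Of 7 other genes of the SIX-EYA-DACH group, 1 rose and 1 fell to 2 wks, and 1 rose from 2 to 7 wks. *Dach2*, a cofactor gene of this group, rose in both intervals, from 0.528 to 1.19 and 6.92 CPM, the first rise not passing with total count scaling (0.22), and *Eya3* fell from 36.8 to 25.6 CPM in the first. Per exon length and within each library, *Eya1* took 7.61 ± 1.07% (SD, n = 4) of the RPKM (CPM per kilobase of exon) of *Eya1* to *Eya4* before birth, 22.5 ± 1.38% in mice of 2 wks and 32.3 ± 0.45% in mice of 7 wks. Such shares do not depend on the scaling between libraries, and they were chosen after the values were seen and carry no test. The GC trend was not removed from these or the later shares and ratios. GC content differs within families, as between *Eya1* (44.6%) and *Eya2* (56.9%) or *Nfatc1* (54.1%) and *Nfatc3* (46.3%).

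*Tead1*, the TEAD factor of MCAT sites, was at 193, 141, 110 and 148 CPM at E18.5, at 176, 197, 192 and 211 CPM at 2 wks and at 397, 368, 240 and 348 CPM at 7 wks. The first 2 ages overlapped through E18.5 replicate 1, and all mice of 7 wks lay above all younger ones with TMM. The change to 2 wks was 0.39 ± 0.19 on the log2 scale (adjusted p = 0.08364 by edgeR), was -0.53 (adjusted p = 0.01814) with total count scaling, and passed without E18.5 replicate 1 (0.54, adjusted p = 0.01817) or without 7 wks replicate 3 (0.40, adjusted p = 0.0445). From 2 to 7 wks *Tead1* rose 1.74-fold (log2 0.80 ± 0.19, adjusted p = 0.007732), with total count scaling 0.46 and no longer called.

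*Vgll2*, the muscle cofactor of TEAD proteins, was at 11.3, 12.7, 7.65 and 7.28 CPM at E18.5, at 17.2, 22.7, 28.5 and 36.8 CPM at 2 wks and at 21.9, 28.1, 38.1 and 30.7 CPM at 7 wks. Every mouse after birth lay above every mouse before it with TMM, and the postnatal ages overlapped almost fully. *Vgll2* rose 2.70-fold to 2 wks (log2 1.43 ± 0.26, adjusted p = 0.0002448 by edgeR), but the value was 0.37 (adjusted p = 0.2282) with the GC trend removed and 0.49 with total count scaling, where it was not called. From 2 to 7 wks its change was 0.18 with a 95% interval of -0.36 to 0.71. The rise of *Vgll2* between E18.5 and 7 wks, 3.05-fold with TMM, still passed with the GC trend removed (log2 0.87, adjusted p = 0.009332) and did not with total count scaling (0.33).

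None of the 7 other TEAD, VGLL and YAP genes tested rose in either interval by edgeR, also 0 at an unadjusted p under 0.05 and 0 by DESeq2. *Tead2* fell in both intervals (21.3 to 10.9 and 3.73 CPM), *Tead4* fell to 2 wks (18.2 to 10.01 CPM) and *Vgll3* fell to 2 wks (35.1 to 8.48 CPM, log2 -2.05, adjusted p = 9.982e-06 by edgeR), while *Vgll1* had no count in any library. All these falls kept their sign with total count scaling and with the GC trend removed. The *Tead1* share of the RPKM of *Tead1* to *Tead4* went from 56.0 ± 10.6% (SD, n = 4) to 71.1 ± 3.76% and 85.4 ± 3.40%, with no overlap between 2 wks and 7 wks. *Vgll2* took 22.2 ± 3.00% of the RPKM of *Vgll2*, *Vgll3* and *Vgll4* before birth, 59.3 ± 8.20% in mice of 2 wks and 64.5 ± 8.87% in mice of 7 wks. The GC content of *Vgll3* is 41.2% and that of *Vgll4* 59.2%, on either side of most genes.

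*Tbx15*, the T-box factor of glycolytic fibres, was at 174, 134, 94.0 and 111 CPM at E18.5, at 212, 231, 197 and 186 CPM at 2 wks and at 420, 374, 348 and 313 CPM at 7 wks. The ages did not overlap with TMM. It rose 1.61-fold to 2 wks (log2 0.69 ± 0.18, adjusted p = 0.004783 by edgeR) and 1.76-fold from 2 to 7 wks (log2 0.82 ± 0.18, adjusted p = 0.005834). Total count scaling gave -0.22 and 0.46 for the same intervals, neither of them called, and 0.24 from E18.5 to 7 wks (adjusted p = 0.2601), where the rise passed with TMM. Leaving out E18.5 replicates 3 and 4 together, the libraries high in adipocyte markers, gave 0.42 to 2 wks (adjusted p = 0.07811). Per exon length *Tbx15* was the most abundant of the 9 genes at each age, at 23.9, 38.6 and 67.9 RPKM. Its relative *Tbx18*, a T-box gene of mesenchymal tissue, fell from 15.9 to 2.57 CPM to 2 wks (log2 -2.62, adjusted p = 6.208e-06).

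*Sox6*, the repressor of slow fibre genes, was at 52.7, 35.6, 34.4 and 51.8 CPM at E18.5, at 83.2, 89.8, 88.6 and 76.98 CPM at 2 wks and at 234, 187, 162 and 173 CPM at 7 wks. The ages were apart with TMM. It rose 1.94-fold to 2 wks (log2 0.96 ± 0.17, adjusted p = 0.000298 by edgeR) and 2.23-fold from 2 to 7 wks (log2 1.16 ± 0.18, adjusted p = 0.0004763). With total count scaling the change to 2 wks was 0.04 and the later rise still passed. Cartilage also uses *Sox6*, and the 7 cartilage and bone markers summed to 25.1 to 159 CPM before birth, to 7.09 to 35.6 CPM in mice of 2 wks and to 7.75 to 19.8 CPM in mice of 7 wks. The range at 2 wks overlapped those of both other ages, while all libraries of E18.5 lay above all of 7 wks. Of these markers 1 rose and 4 fell to 2 wks, and their part in the *Sox6* values was not tested.

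*Prox1*, the factor of slow fibres and of lymphatic endothelium, was at 16.5, 10.3, 8.25 and 9.56 CPM at E18.5, at 4.98, 3.78, 3.23 and 2.97 CPM at 2 wks and at 2.79, 2.34, 1.06 and 1.88 CPM at 7 wks. It was the only one of the 9 genes that fell, and no age overlapped with another. *Prox1* fell 2.99-fold to 2 wks (log2 -1.58 ± 0.30, adjusted p = 0.0003792 by edgeR) and 1.86-fold from 2 to 7 wks (log2 -0.89 ± 0.30, adjusted p = 0.04009). It kept this sign in every alternative tried, while the later fall missed the threshold in 6 of the 12 fits that left out a library, namely 2 wks replicates 1, 2 or 3 or 7 wks replicates 2, 3 or 4 (log2 -0.97 to -0.68, adjusted p 0.05224 to 0.1245).

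The 5 lymphatic markers moved in part with *Prox1*. Their sum lay between 64.1 and 89.5 CPM before birth, between 35.2 and 36.7 CPM in mice of 2 wks and between 20.4 and 25.2 CPM in mice of 7 wks. *Lyve1*, *Pdpn* and *Mmrn1* fell to 2 wks, with *Lyve1* at 42.5 and then 6.78 CPM, and 2 markers fell from 2 to 7 wks. *Flt4*, the receptor of lymphatic growth factors, and the chemokine gene *Ccl21a* rose to 2 wks, by 1.24 and 1.15 on the log2 scale, and did not pass with total count scaling (0.29 and 0.22). The part of lymphatic cells in the fall of *Prox1* was not tested. Its antisense gene *Prox1os* overlaps 10.9% of the *Prox1* exons and had at most 0.235 CPM in any library.

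The ratio of *Sox6* to *Prox1* per exon length, which no scaling between libraries can move, was 2.24 ± 0.55 (SD, n = 4) before birth, 13.0 ± 2.63 in mice of 2 wks and 56.5 ± 19.0 in mice of 7 wks, with ranges of 1.77 to 3.00, 9.25 to 15.2 and 44.1 to 84.8. The ratio was chosen after the values were seen and has no test. Of the 7 relatives listed for *Sox6*, *Prox1*, *Nfix* and *Tbx15*, 3 rose and 4 fell to 2 wks, and 0 passed from 2 to 7 wks by edgeR (1 higher and 1 lower at an unadjusted p under 0.05, 0 by DESeq2). The *Sox6* share of *Sox5*, *Sox6* and *Sox13* was 65.5 ± 12.4%, 54.3 ± 4.90% and 78.2 ± 9.14%, as *Sox13* rose to 2 wks from 5.96 to 22.8 CPM and *Sox5* fell from 4.21 to 1.74 CPM. *Prox1* took 79.4 ± 8.39% of the RPKM of *Prox1* and *Prox2* before birth, 48.5 ± 7.73% in mice of 2 wks and 28.02 ± 8.60% in mice of 7 wks.

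The genes by which fibre types are told apart moved beside these factors. Of 10 slow fibre genes, 8 fell and 1 rose to 2 wks (median log2 fold change -1.57), and 7 fell from 2 to 7 wks (median -1.15), with 0 higher by edgeR, at an unadjusted p under 0.05 and by DESeq2. *Myh7*, the slow myosin heavy chain, was at 144 CPM on average before birth and at 15.4 and 4.29 CPM after it, and slow troponin *Tnnt1* was at 121, 49.1 and 6.46 CPM. The gene that rose to 2 wks was *Myl3*, from 21.2 to 52.2 CPM (adjusted p = 0.02062 by edgeR), a rise that did not pass with the GC trend removed (0.64, adjusted p = 0.1548) or with total count scaling (0.40, adjusted p = 0.4164). All 11 fast fibre genes rose to 2 wks (median 4.33) and 0 passed from 2 to 7 wks by edgeR (median 0.33 with TMM and -0.03 with total count scaling), with 1 higher and 1 lower both at an unadjusted p under 0.05 and by DESeq2, 0 and 2 with total count scaling and 4 and 0 with the GC trend removed. *Myh4*, the fastest myosin heavy chain, went from 33.5 to 38590 CPM and then stood at 43940 CPM, and the calcium buffer *Pvalb* went from 70.0 to 13600 and 11690 CPM.

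The contrast of the intervals sets the timing of fibre genes and factors side by side. It passed for all 11 fast fibre genes, each with the larger change to 2 wks, while for *Six4*, *Eya1*, *Tead1*, *Tbx15* and *Sox6* it did not pass with TMM. The fast fibre genes thus had the larger change before 2 wks. These 5 factors passed the test for a rise after it, of which *Eya1* and *Sox6* also did so with total count scaling. *Eya1*, *Tbx15* and *Sox6* passed with TMM before 2 wks as well. The contrast passed for *Eya1* with the GC trend removed, with the larger change to 2 wks (0.93, adjusted p = 0.01731 by edgeR). With total count scaling it passed for *Six4* and *Tead1*, with the larger value after 2 wks. The fast fibre genes and the factors were not tested against each other.

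**Figure D3:**
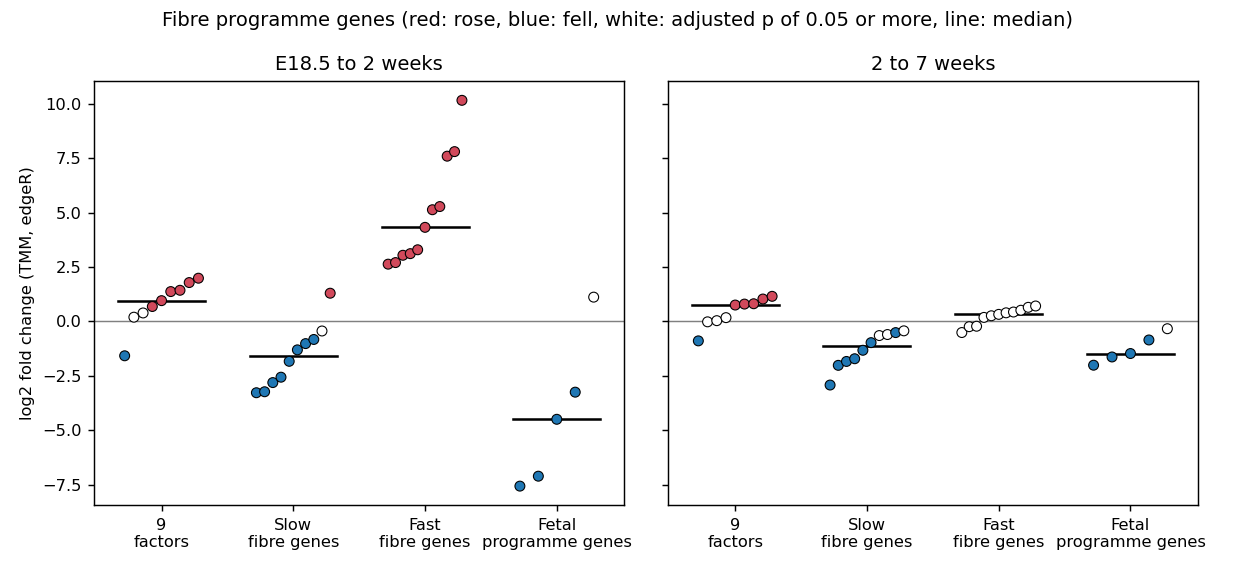
Log2 fold change (TMM, edgeR) of the 9 factors and of 10 slow fibre, 11 fast fibre and 5 fetal programme genes from E18.5 to 2 wks and from 2 to 7 wks. Points are genes, red where they rose, blue where they fell and white where the adjusted p was 0.05 or more, and lines are medians. The fast fibre median was 4.33 in the first interval and 0.33 in the second, and the slow fibre median was below 0 in both.

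*Nfatc1* (ENSMUSG00000033016, chr18:80606205-80713071), the calcineurin-dependent factor, was at 11.8, 16.3, 9.80 and 11.8 CPM at E18.5, at 42.7, 42.02, 42.2 and 45.1 CPM at 2 wks and at 46.4, 45.6, 41.8 and 42.7 CPM at 7 wks. Postnatal mice of both ages shared a narrow range, far above all mice of E18.5. It rose 3.46-fold to 2 wks (log2 1.79 ± 0.15, adjusted p = 5.094e-07 by edgeR), and this rise passed with total count scaling and with the GC trend removed (1.27, adjusted p = 8.707e-06). From 2 to 7 wks the change was 0.04 with a 95% interval of -0.28 to 0.35, and -0.31 with total count scaling. Osteoclasts and leukocytes also use *Nfatc1*. The 4 osteoclast markers summed to 32.2 to 49.5 CPM at E18.5 and 16.03 to 28.2 CPM at 2 wks, and the 5 leukocyte markers to 27.9 to 35.7 and 6.45 to 9.34 CPM. Single markers were split: of 3 osteoclast markers tested, 1 rose and 1 fell to 2 wks by edgeR, and of 5 leukocyte markers 1 rose and 2 fell. The part of these cells in the *Nfatc1* values was not tested.

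Of the 4 other NFAT genes, 3 fell to 2 wks and 0 rose by edgeR, at an unadjusted p under 0.05 and by DESeq2. *Nfatc4* fell in both intervals (24.3 to 10.2 and 6.34 CPM), the later fall not passing with the GC trend removed. *Nfatc3* fell from 54.8 to 35.1 CPM and then rose to 52.7 CPM (log2 0.59, adjusted p = 0.009644 by edgeR), or by 0.24 and without passing where libraries were scaled to the total count. *Nfat5*, the factor of osmotic stress, fell from 98.5 to 50.4 CPM. Within the family *Nfatc1* took 10.5 ± 1.71% (SD, n = 4) of the RPKM before birth, 40.6 ± 2.03% in mice of 2 wks and 38.1 ± 2.98% in mice of 7 wks, and its ratio to *Nfatc3* was 0.457, 2.42 and 1.67.

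*Nfix*, the factor of the fetal programme, was at 29.3, 52.9, 31.9 and 27.9 CPM at E18.5, at 104, 111, 144 and 205 CPM at 2 wks and at 138, 152, 110 and 158 CPM at 7 wks. All postnatal mice lay above all mice of E18.5, among which replicate 2 stood apart, and the spread was widest at 2 wks. *Nfix* rose 3.97-fold to 2 wks (log2 1.99 ± 0.25, adjusted p = 1.609e-05 by edgeR), 1.08 with the GC trend removed (adjusted p = 0.001429). From 2 to 7 wks its change was -0.02 with a 95% interval of -0.54 to 0.51. Exons of *Trmt1* and *Lyl1* overlap 4.63% and 3.08% of the *Nfix* exons on the other strand, and *Trmt1*, at 13.4 to 53.2 CPM, was also higher after birth.

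The NFI family was reshaped between E18.5 and 2 wks, with each of its 4 genes past the test. *Nfic* rose from 39.3 to 278 CPM (log2 2.82, adjusted p = 2.579e-07 by edgeR), while *Nfia* fell from 94.6 to 46.8 CPM (log2 -1.01) and *Nfib* from 227 to 126 CPM (log2 -0.85). None of these 3 passed from 2 to 7 wks, except *Nfic* with the GC trend removed (0.62, adjusted p = 0.01181). By share of the family's RPKM, *Nfib* led at E18.5 with 41.99 ± 6.18% (SD, n = 4) and *Nfic* at 2 wks with 57.7 ± 2.79%, and *Nfix* went from 14.5 ± 3.99% to 25.8 ± 4.36% and 23.8 ± 2.72%. The ratio of *Nfix* to *Nfia* was 0.599 ± 0.297, 4.56 ± 1.45 and 4.19 ± 0.642. The genes that rose, *Nfic* and *Nfix*, have GC contents of 59.3% and 56.9%, and those that fell, *Nfia* and *Nfib*, of 42.9% and 43.4%. With the GC trend removed all 4 kept their sign and their call to 2 wks.

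**Figure D4:**
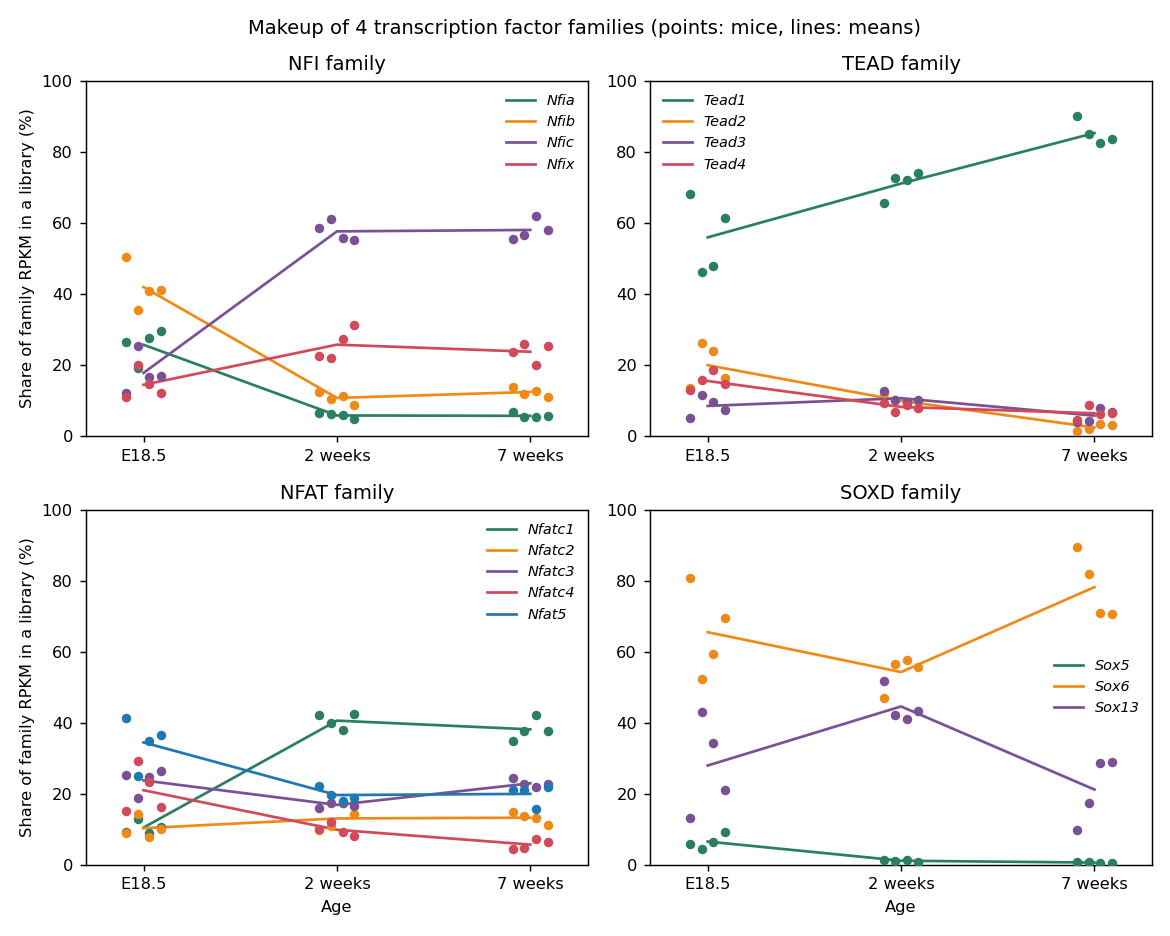
Share of the RPKM of a family (vertical axes, percent) taken by each of its genes in the NFI, TEAD, NFAT and SOXD (*Sox5*, *Sox6*, *Sox13*) families, with points for the 4 mice of each age and lines through the means. *Nfic* and *Nfib* exchange the lead between E18.5 and 2 wks, *Tead1* reaches 85.4% at 7 wks and *Nfatc1* goes from 10.5% to 40.6% between E18.5 and 2 wks.

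Among 5 genes of the fetal programme, 4 fell to 2 wks and 4 from 2 to 7 wks (medians -4.50 and -1.47). Embryonic myosin *Myh3* went from 1751 to 12.6 and 7.00 CPM, perinatal myosin *Myh8* from 5838 to 30.7 and 11.0 CPM, and *Chrng*, the fetal subunit of the acetylcholine receptor, from 39.7 to 1.76 and 0.560 CPM. *Actc1*, cardiac actin, was at 3278, 7122 and 1767 CPM and passed the test only in the later fall, although with the GC trend removed it also rose to 2 wks (1.47, adjusted p = 0.0161). *Nfix* was higher at both postnatal ages than at E18.5, and *Myh3* and *Myh8* were lower at both. A link between these courses was not tested.

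Per exon length, the order at E18.5 was *Tbx15* (23.9 RPKM), *Tead1* (10.9), *Nfix* (4.78), *Vgll2* (2.70), *Sox6* (2.69), *Six4* (1.63), *Nfatc1* (1.63), *Prox1* (1.24) and *Eya1* (0.853). From *Vgll2* on, each gene's range overlapped that of the next in the order. At 2 wks *Tbx15* (38.6 RPKM) stood above *Nfix* (19.0) and *Tead1* (14.3), which overlapped, and *Prox1* (0.417) stood below all others. At 7 wks *Tbx15* (67.9 RPKM) led *Tead1* (24.9) and *Nfix* (18.8), which again overlapped, then *Sox6* (11.6) and *Vgll2* (8.25), and *Nfatc1* (5.78), *Eya1* (4.52) and *Six4* (3.16), with *Prox1* (0.225) last. *Eya1* thus had the lowest mean of the 9 before birth. Its mean was above that of *Six4* at 2 wks (2.21 against 1.87 RPKM) and at 7 wks, and the ranges of these genes overlapped at both ages.

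Over the 12 libraries the log2 CPM of *Eya1* and *Tbx15* correlated at 0.975, that of *Eya1* and *Sox6* at 0.971, that of *Nfix* and *Nfatc1* at 0.966 and that of *Six4* and *Tead1* at 0.922. *Prox1* was negatively correlated with each of the other 8, from -0.648 with *Six4* to -0.873 with *Vgll2*. These values describe points that share age, library and GC content. Among 8801 genes, the course most like that of *Six4* was that of *Fgf13* (r = 0.974), for *Eya1* that of *Map3k20* (0.990), for *Tead1* that of *Ubr3* (0.982), for *Sox6* that of *Rap1gds1* (0.991) and for *Prox1* that of *Zdhhc20* (0.995). For *Tbx15* it was *Dnaja2* (0.979), for *Vgll2* the cochaperone gene *Bag3* (0.969), for *Nfix* *Arhgef10l* (0.988) and for *Nfatc1* the ankyrin gene *Ank1* (0.994). A correlation above 0.95 was shared with 535 genes for *Nfatc1*, 308 for *Prox1* and 263 for *Eya1*, but with 18 for *Six4* and 27 for *Vgll2*.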

How the data were processed

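RNA of TA muscle from 12 WT mice was prepared with a stranded, polyA-selected kit and read as paired ends. Per the labels, the authors used bcl2fastq 2.17.1.14, cutadapt 1.10, STAR 2.5.3a and HTSeq 0.6.1p1, and deposited raw counts per Ensembl gene, without coordinates. The labels name mm10 and the methods GRCm39. The strand setting is not given in the sources used here. Of 55450 genes, 51477 matched GENCODE vM39, which gave symbols, exon lengths, GC content (98.74% of tested genes) and overlaps. Coordinates and start windows are RefSeq's on GRCm38.p6. The 9 genes, and all lists, were chosen with earlier results of these data known.

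Counts were scaled by TMM and tested with age as the only term of a fit that held every library (edgeR 4.0.16, limma 3.58.1, R 4.3.3), with filterByExpr leaving 19276 genes and Benjamini-Hochberg adjustment over all of them at 0.05. The study's own test needs reads and was not used here. The biological coefficient of variation was 0.279. Likeness used log2 CPM (prior count 2) of genes with a mean of at least 3. Text names were limited to the 9 genes, their fixed lists and the gene most like each, and 1 gene of these lists is not reported here. Lists not described in the report were markers of blood endothelium (306 to 461, 785 to 950 and 489 to 758 CPM summed at E18.5, 2 and 7 wks), red blood cells (241 to 1025, 146 to 756 and 91.9 to 130) and epidermis (5 of 6 matched, at most 54.5 in E18.5 replicate 2). Alternatives were other scalings, DESeq2 1.42.0, other count filters, removal of the trend over GC content, a replicate block, 8 libraries only, a log2 fold change beyond 1 and each library left out. The edgeR and DESeq2 fits were tried on simulated counts for the comparison of E18.5 and 2 wks only. Figures used Python 3.11.15, pandas 2.3.3 and matplotlib 3.10.9.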

Additional observations from a re-analysis of the deposited data

Results flagged for a closer look

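In 8 of 111 sets of 4 libraries (a gene in an age, over the 9 genes and 28 genes of the lists), 1 library lay far from the other 3, where chance alone would give about 5.55 sets by the 1 in 20 rate of Dixon's test. Among the 9 genes this was *Nfix* in E18.5 replicate 2, at 52.9 CPM against 27.9 to 31.9 CPM in the others. The same library stood high for *Tnnt1*, at 180 CPM against 94.8 to 109, and for *Myh3*, at 2281 CPM against 1506 to 1617, and it also had the highest sum at E18.5 of the muscle fibre, cartilage and bone, lymphatic, fibroblast, satellite cell, Schwann cell and epidermis markers. In 2 wks replicate 1, *Myh7* was at 39.5 CPM against 4.44 to 9.72 and *Nfia* at 45.3 against 47.2 to 47.4 CPM. *Nfib* was at 295 CPM against 196 to 209 in E18.5 replicate 1 and at 178.5 CPM against 154 to 155 in 7 wks replicate 1. *Mylpf* was at 20460 CPM against 23570 to 24200 in 2 wks replicate 4.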

How the results depend on the processing

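DESeq2, no filter on low counts and fits of 8 libraries changed no call or direction of the 9 genes. With total count scaling, 3 of the 9 genes passed from 2 to 7 wks and 5 from E18.5 to 7 wks. Directions turned for *Six4* (-0.73), *Tead1* (-0.53) and *Tbx15* (-0.22) to 2 wks, *Vgll2* (-0.15) and *Nfatc1* (-0.31) from 2 to 7 wks, *Six4* (-0.32) and *Tead1* (-0.073) from E18.5 to 7 wks and *Eya1* (-0.23) for the contrast of intervals. Leaving the 20 most abundant and 37 mitochondrial genes out of the total, which moved the median of all genes by -0.48, -0.27 and -0.75, turned *Six4* (-0.28) and *Tead1* (-0.087) to 2 wks and *Vgll2* (-0.080) and *Nfatc1* (-0.23) from 2 to 7 wks. *Nfatc1* from 2 to 7 wks was -0.069 with upper-quartile scaling, which moved the median by -0.11, and -0.0051 with at least 10 counts in every library. With the GC trend removed, *Nfix* turned from 2 to 7 wks (0.32), as did *Sox6* (0.26), *Tbx15* (0.001) and *Vgll2* (-0.12) for the contrast.

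Beyond a log2 fold change of 1, 4 genes passed to 2 wks and 0 from 2 to 7 wks by edgeR's glmTreat (also 0 at an unadjusted p under 0.05, whereas DESeq2 without that bound passed 6). Leaving out each library gave 7 to 9 genes to 2 wks, 4 to 6 from 2 to 7 wks, 9 from E18.5 to 7 wks and 2 to 3 for the contrast, and turned *Tbx15* for the contrast (range -0.254 to 0.0527) without E18.5 replicate 1 and *Nfix* from 2 to 7 wks without 2 wks replicate 4 (0.22) or 7 wks replicate 3 (0.08). Without E18.5 replicates 3 and 4, an alternative added after seeing the data, *Six4* was at -0.066 to 2 wks and the *Vgll2* contrast at 0.95 (adjusted p = 0.1021 by edgeR). The *Vgll2* contrast also missed the threshold without E18.5 replicates 3 or 4, 2 wks replicates 3 or 4 or 7 wks replicates 1 or 2 (0.86 to 1.24, adjusted p 0.05408 to 0.1562) and with the replicate number as a block (1.204, adjusted p = 0.05564), and the block brought *Tead1* to 2 wks past it (0.43, adjusted p = 0.04717). Correlations of same-numbered libraries were -0.142 to 0.284. The best match had the same number for replicates 1, 3 and 4 between E18.5 and 7 wks, and only for replicate 4 in each other comparison. Whether the numbers mark something shared was not tested. The block gave 8 of the 9 genes to 2 wks in place of 7 and 2 for the contrast in place of 3, with 6 and 9 as before in the other comparisons. Over all genes, passing beyond a log2 fold change of 1 left 5507, 561, 7574 and 2463 genes to 2 wks, from 2 to 7 wks, from E18.5 to 7 wks and for the contrast, and 2 to 7 wks without 2 wks replicate 1 gave 3472. Apart from the shifts that scaling itself makes, the cause was not tested.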
